A study of Mus musculus with 6 samples.

Results

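Ago2, the Argonaute protein gene formerly named Eif2c2, was examined in the ventricles of newborn mice that lack the microRNA gene miR-125b-1 in the heart muscle. The members were all rows of the deposited table that the platform annotation assigns to Ago2, which gave 3 probe sets of 271 in all. They were selected by the same contrast that is described here, because the table analysed here holds only probe sets that differ by at least 1.00 on the log2 scale between the group means, and Ago2 was then picked from it with its values known. The differences of Ago2 are therefore a description, and no test of them is given. The wild-type group had the genotype aMHC-Cre; 125b1+/+ and the knockout group aMHC-Cre; 125b1f/f, with 3 arrays each, all from ventricles at postnatal day 1. Both groups thus carried the Cre transgene, whose promoter from the α-myosin heavy chain gene is active in cardiomyocytes, so other cells of the ventricle keep miR-125b-1 in the knockout, and every cell keeps the second locus, miR-125b-2. The study calls the arrays independent experiments. Whether 1 pup or several were used for an array is not stated, and the spread between arrays may be partly technical. Sex is not stated.

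Argonaute proteins hold a microRNA and carry it to messenger RNAs that pair with its seed, where GW182 proteins are recruited and the message is repressed and degraded. Ago2 is the Argonaute of mammals best known for cutting a fully paired target, and it is needed for mouse development. The amount of Argonaute in a cell is tied to the amount of microRNA, since an Argonaute without a guide is known to be less stable as a protein. The arrays measured RNA and not protein. Ago2 lies at chr15:73101625-73184947 (GRCm38.p6, RefSeq gene table).

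The microRNAs are shown first because they define the knockout. The sequences are from RefSeq (GRCm38.p6), 5′ to 3′, and the capitals mark the seed, bases 2 to 8. The deleted locus on chromosome 9 and the intact locus on chromosome 16 give the same mature 5p strand and differ in their 3p strands. miR-125a-5p and miR-351-5p have the same seed, which was found in at least 5 mature microRNA names of the RefSeq table. The study reports that miR-125a could not be detected in hearts. The count did not take in every chromosome, so further names may share the seed.
miR-125b-5p (Mir125b-1, chr9:41581940-41581961, + strand): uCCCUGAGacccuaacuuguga
miR-125b-5p (Mir125b-2, chr16:77646279-77646300, + strand): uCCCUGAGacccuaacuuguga
miR-125b-1-3p (Mir125b-1, chr9:41581980-41582001, + strand): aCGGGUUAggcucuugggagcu
miR-125b-2-3p (Mir125b-2, chr16:77646318-77646339, + strand): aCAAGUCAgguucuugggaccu
miR-125a-5p (Mir125a, chr17:17830817-17830840, + strand): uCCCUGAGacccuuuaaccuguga
miR-351-5p (Mir351, chrX:53053315-53053338, - strand): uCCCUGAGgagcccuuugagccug
Neither the microRNAs nor the transcript of the targeted locus are analysed here, so the genotype of the arrays could not be checked against them. By quantitative PCR the study reports that the primary transcript of miR-125b-1 was almost lost in knockout neonatal ventricles. It reports that mature miR-125b was reduced there but in part remained.

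All 3 probe sets of Ago2 were higher in the knockout ventricles. Values are linear intensities as deposited, and an intensity of one probe set cannot be set against that of another. The brightest probe set, 1455389_s_at, was at 1438, 1160.4 and 1278 on the wild-type arrays. On the knockout arrays it was at 3747, 4002 and 3061. The groups did not overlap, and the lowest knockout array was 2.13 times the highest wild-type array. The means were 1292 ± 139 and 3604 ± 487 (SD, n = 3 each), a 2.78-fold difference between geometric means. The ending _s_at marks probes that can also match other transcripts, so a share of this signal may belong to a related sequence.

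The probe set 1435636_at was annotated with the same source sequence, AI415636, as the brightest one, so the pair does not sample the transcript independently. It stood at 255, 200.2 and 285 in the wild-type. In the knockout it stood at 895, 1111 and 918. Here too the groups were apart, by 3.14 times between the nearest arrays. The means of 247 ± 42.9 and 975 ± 118 (SD, n = 3 each), and the geometric means differed by 3.98-fold, the largest difference of the 3 probe sets.

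The probe set 1455294_at comes from another source sequence, BB765875. Its wild-type intensities were 283, 241 and 277, and its knockout intensities were 702, 779 and 726. It varied least between arrays of a group, and its groups were apart by 2.48 times between the nearest arrays. The means were 267 ± 22.8 and 736 ± 39.6 (SD, n = 3 each), a 2.76-fold difference between geometric means.

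**Figure D1:**
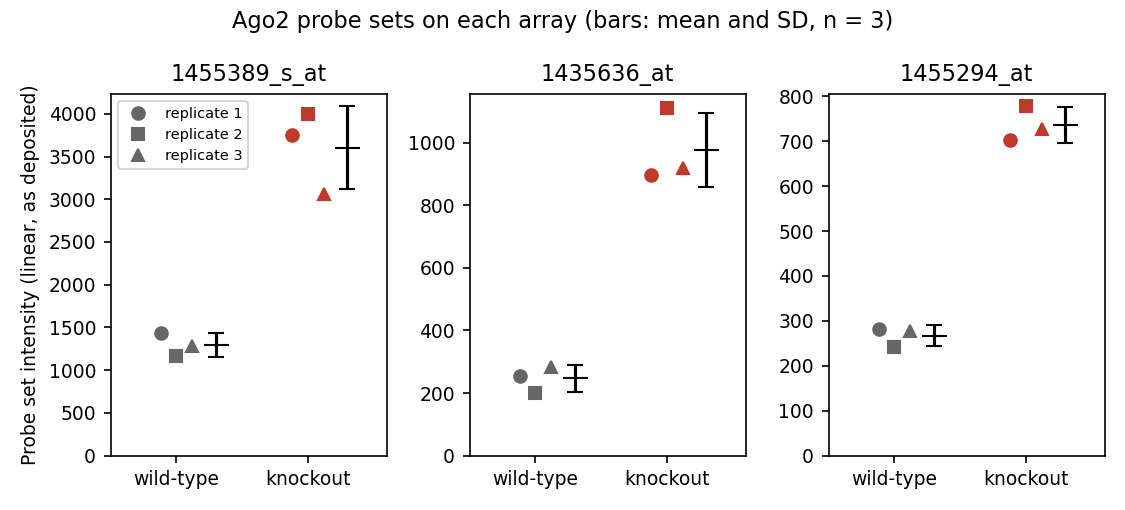
Linear intensity (y axis, from 0) of the 3 Ago2 probe sets on the 3 wild-type (grey) and 3 knockout arrays (red), with the replicate number as the symbol and the mean and SD as black bars. Every knockout array is above every wild-type array in each panel, and for 1455389_s_at the knockout mean is 3604 against 1292.

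On the log2 scale the difference, knockout minus wild-type, was 1.48 with a standard error of 0.12 for 1455389_s_at. It was 1.99 (standard error 0.13) for 1435636_at and 1.46 (standard error 0.11) for 1455294_at, all from limma fitted on the whole table. These standard errors were estimated on a selection and may understate the error. Of the 271 probe sets, 183 were higher by at least the 2-fold of the study's threshold, which is 67.5%, and in 100% the groups did not overlap. That all 3 Ago2 probe sets were among them is what the selection fixes and is not read as a result. Whether other Ago2 probe sets of the array missed the threshold cannot be seen from the table.

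Within the table the median log2 difference of the higher probe sets was 1.41. Of the Ago2 probe sets, 1435636_at was above it at 1.99. The other pair, at 1.48 and 1.46, was above it by less than a standard error. The probe set 1435636_at was number 26 of 271 from the top, 1455389_s_at number 84 and 1455294_at number 86. Next to 1435636_at in this order were Snhg6, a noncoding host of small nucleolar RNA, at 1.99 and Flcn, the folliculin gene, at 1.98. The other pair had Foxo3, a transcription factor, at 1.48 just above and Tmem164 at 1.46 just below, with Pnpla2, the adipose triglyceride lipase gene, at 1.47 between them. Each of these neighbours differed from its Ago2 probe set by less than 0.01, far under the standard errors, so the order among them carries no information. The edge of the table lay at Zfp469 with a log2 difference of 1.00 and Tmem106b with 1.00. These went from 100.1 ± 10.0 to 200.2 ± 17.2 and from 290.3 ± 18.2 to 582 ± 44.3 (SD, n = 3 each), and probe sets just outside it are not analysed here.

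**Figure D2:**
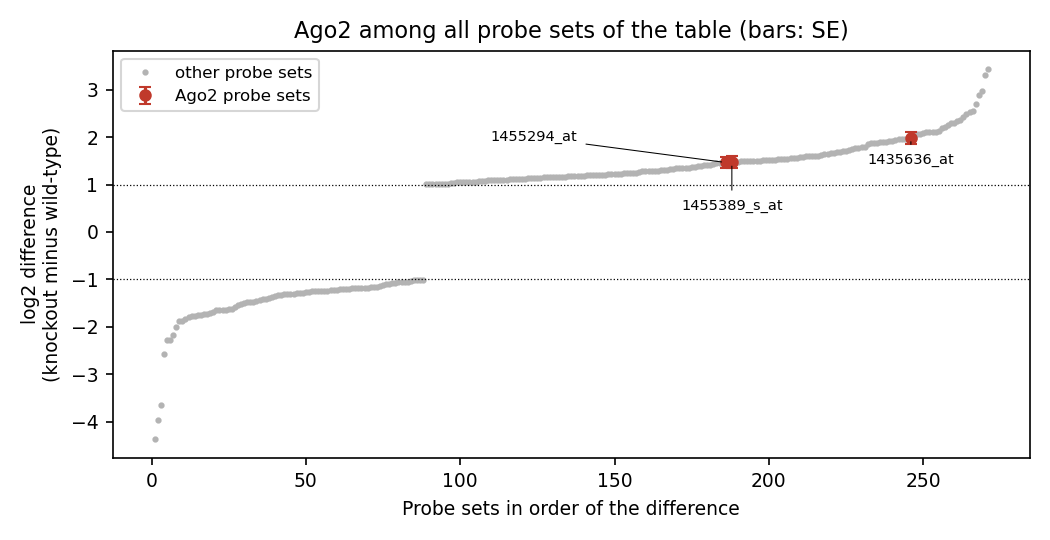
log2 difference (y axis, knockout minus wild-type) of the 271 probe sets in rising order (x axis, position in the order), with the 3 Ago2 probe sets in red with their standard errors and dotted lines at -1 and 1. The table has no probe set between the lines, and Ago2 is at 1.46, 1.48 and 1.99.

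By mean log2 intensity over the 6 arrays, 1455389_s_at was number 15 from the top, with 94.5% of the probe sets dimmer. It lay between Dynll1, a light chain of the dynein motor, and Gas5, a noncoding RNA. The pair 1435636_at and 1455294_at was in the upper middle, at numbers 92 and 97. Around them stood Mxi1, an antagonist of Myc, Dpysl3, the DNA methyltransferase gene Dnmt1, and a probe set of Sesn1, a sestrin gene. Brightness depends on the probes as well as the transcript, so this order describes the table and not the RNA levels.

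The probe sets of Ago2 did not change by the same amount. The log2 ratio of 2 probe sets within an array does not depend on the scaling of that array by a common factor. The ratio of 1435636_at to 1455294_at lay between -0.27 and 0.04 on the wild-type arrays and between 0.34 and 0.51 on the knockout arrays, so the groups were apart. The first of them thus changed more, by 0.53 on the log2 scale (standard error 0.11). The standard errors of these ratios come from each group's own SD and not from limma. Between 1455389_s_at and 1435636_at, which share a source sequence, the ratio was 2.17 to 2.54 in the wild-type and 1.74 to 2.07 in the knockout. That is a difference of -0.52 (standard error 0.15). Both of these ratios contain 1435636_at, so their differences are not independent of each other. The ratio of 1455389_s_at to 1455294_at overlapped between the groups, at 2.21 to 2.34 and 2.08 to 2.42, and its difference was 0.01 (standard error 0.11). Positions of the probes on the transcript were not used here, and whether isoforms, shared probes or the range of a probe set goes with the unequal change was not tested.

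A spread among the probe sets of a gene was also seen for other genes of the table. Probe sets under the threshold are missing from these ranges, and a range tends to widen with the number of probe sets. The ranks are therefore a description only. Of the genes with a single name, 32 had more than 1 probe set and 5 had at least 3. The range of log2 differences over the probe sets of Ago2 was 0.53, which was number 11 of the 32. Among the 5 genes with at least 3 probe sets it was 0.79 for the noncoding RNA Snhg1, 0.41 for Sesn1, 0.37 for the glutathione transferase gene Gstm1 and 0.08 for Clic5, a chloride intracellular channel gene.

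**Figure D3:**
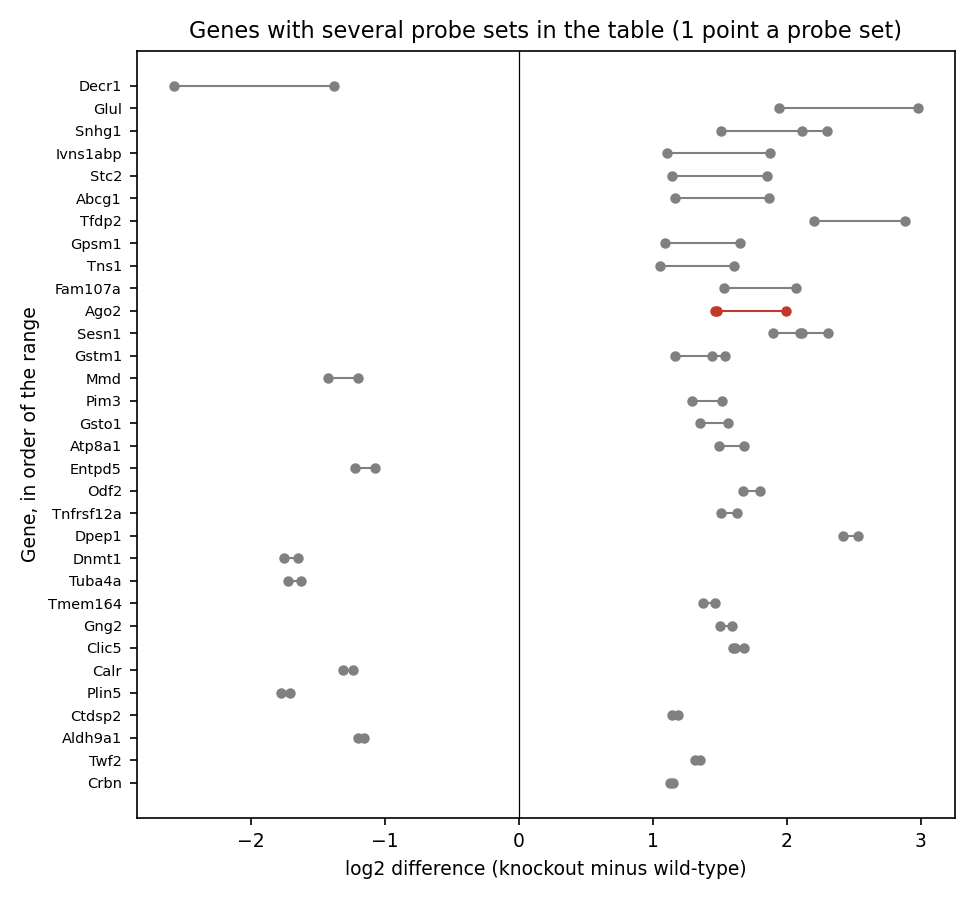
log2 difference (x axis, knockout minus wild-type) of each probe set (point) of the 32 genes with several probe sets in the table, joined by a line and ordered by the range (y axis). Ago2, in red, has a range of 0.53 and is number 11 from the top.

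The variation within a group was shared only in part by the Ago2 probe sets. Of these, 1455389_s_at and 1435636_at have the same source sequence. Wild-type replicate 2 was the lowest wild-type array for all 3, with log2 deviations from the group mean of -0.15 for 1455389_s_at, -0.29 for 1435636_at and -0.14 for 1455294_at. Knockout replicate 2 was the highest knockout array for all 3, with deviations of 0.16, 0.20 and 0.08 in the same order. The median deviation of all probe sets was -0.02 on both of these arrays. It takes higher and lower probe sets together, whose deviations can cancel, so it does not show a pattern particular to Ago2. Wild-type replicate 2 was also the lowest wild-type array for the β-myosin heavy chain gene Myh7, at 1297 against 1804 and 1849. It was the highest for the collagen gene Col3a1, at 1905 against 1646 and 1679, and in between for Srsf3 and Hspa4. The other arrays had no such common order. Without wild-type replicate 2 the log2 differences of Ago2 were 1.40, 1.85 and 1.39 in the order above, and without knockout replicate 2 they were 1.40, 1.89 and 1.42.

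The size of the rise could not be set against unchanged probe sets. The median of the table was 0.54 higher on the log2 scale in the knockout arrays. A table selected at 2-fold with 183 higher and 88 lower probe sets can have such a shift also where the arrays are scaled alike, and unchanged probe sets against which the scaling could be checked are not analysed here. With a common median for all arrays (median centring) the log2 differences of Ago2 were 0.93 for 1455389_s_at, 1.45 for 1435636_at and 0.92 for 1455294_at. After quantile normalization they were 0.85, 1.35 and 0.80. All stayed above 0 under both alternatives, which for median centring follows from a shift of 0.54 that is smaller than each difference. That 2 of the 3 probe sets were then under the 2-fold threshold follows from taking off a shift that the selection itself can give, and it says nothing of which zero is right. The unequal change between probe sets is left as it was by median centring by construction, and it was of similar size after quantile normalization.

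**Figure D4:**
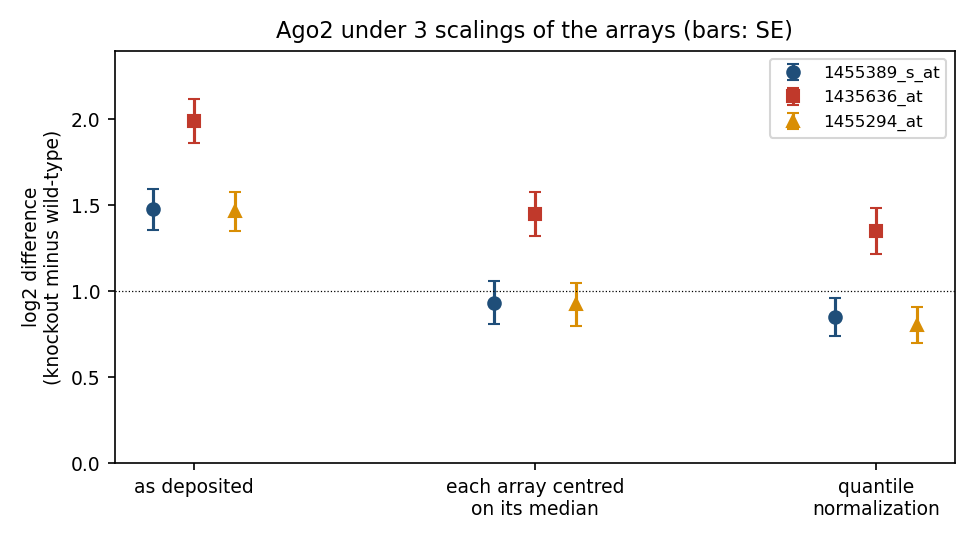
log2 difference (y axis, knockout minus wild-type) of the 3 Ago2 probe sets under the scaling of the deposited values, median centring and quantile normalization (x axis), with standard errors from limma and a dotted line at 1, the 2-fold threshold. Only 1435636_at is above the line under all 3, at 1.99, 1.45 and 1.35.

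Other genes of the microRNA pathway were sought in the table through 7 lists with 111 genes. They take in the Argonautes, the enzymes and binding proteins that process and export microRNAs, the GW182 and deadenylation proteins, the decapping proteins, the chaperones that load Argonaute, the factors that modify or degrade it, and cofactors of the RNA-induced silencing complex. Ago2 was 1 of 3 of these genes in the table. Ago2, picked with its values known, was higher and the other 2 were lower, while 67.5% of all probe sets were higher. So few genes do not show a direction of the pathway. Of the other 6 genes of the Argonaute family, which include Ago1, Ago3 and Ago4, none is among the probe sets analysed here. The same holds for Drosha, Dgcr8, Xpo5 and Dicer1, whose products cut and export microRNA precursors, and for Tnrc6a, Tnrc6b and Tnrc6c, which encode the GW182 proteins. None of the 21 GW182 and deadenylation genes, of 16 decapping genes, of 20 modifying and turnover factors and of 15 cofactors was among them. A gene outside the table may have changed by less than the threshold or may not have been measured, so no share of the pathway is given.

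The lower member of the processing list was Srsf3, a splicing factor that also binds a short motif beside microRNA hairpins and aids their cutting by Drosha. Its probe set 1416151_at was at 219, 243 and 269 on the wild-type arrays and at 90.2, 92.2 and 118 on the knockout arrays. The knockout arrays were all under the wild-type arrays, and the log2 difference was -1.29 (standard error 0.12), 2.44-fold lower. The lower member of the chaperone list was Hspa4, a chaperone of the Hsp110 group that acts as a nucleotide exchange factor for Hsp70. Its probe set 1435194_at was at 281, 307 and 307 in the wild-type and at 119, 131 and 114 in the knockout. The groups were again apart, with a log2 difference of -1.30 (standard error 0.11), 2.46-fold lower. Median centring gave -1.83 for Srsf3 and -1.84 for Hspa4. It takes the same amount from every difference, so every lower probe set moves further from 0 by construction. Outside the lists, and picked out after its values were seen, Zfp346 encodes a zinc finger protein that binds double-stranded RNA. Its probe set went from 359 ± 27.1 to 1180 ± 153 (SD, n = 3 each), a log2 difference of 1.71 (standard error 0.12).

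The genes whose pattern over the 6 arrays was most like the brightest Ago2 probe set were taken by the root mean square distance between log2 profiles, each centred on its own mean. The nearest was Adam23, a cell adhesion protein of the ADAM family, at a distance of 0.07 on the log2 scale, with 42.4 ± 4.12 in the wild-type and 110.9 ± 15.6 in the knockout (SD, n = 3 each). Next were Tlr4, the receptor for bacterial lipopolysaccharide, and Heca, at 0.10 and 0.11. They were followed by Gabarapl1, a protein of the autophagosome, and Tcp11l2, both at 0.11. Like Ago2 these probe sets were higher in the knockout, with log2 differences of 1.31 to 1.55. Adam23 and Tlr4 were dim, with wild-type means of 42.4 and 44.3, where the lowest intensity in the table was 30.1. With a pseudocount of 16, 3 of the 5 genes were still among the nearest 5. With the Pearson correlation in place of the distance, 1 of the 5 genes was among the nearest 5, and the correlations of those nearest 5 were 0.997 to 0.999, over arrays whose groups are apart in every probe set by the selection. For the other probe sets of Ago2, Gabarapl1 was also among the 5 genes nearest to 1455294_at, and the rest were other genes. Fam107a was nearest to 1435636_at at 0.14, and Cyp27a1, a sterol hydroxylase of the mitochondrion, to 1455294_at at 0.06.

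**Figure D5:**
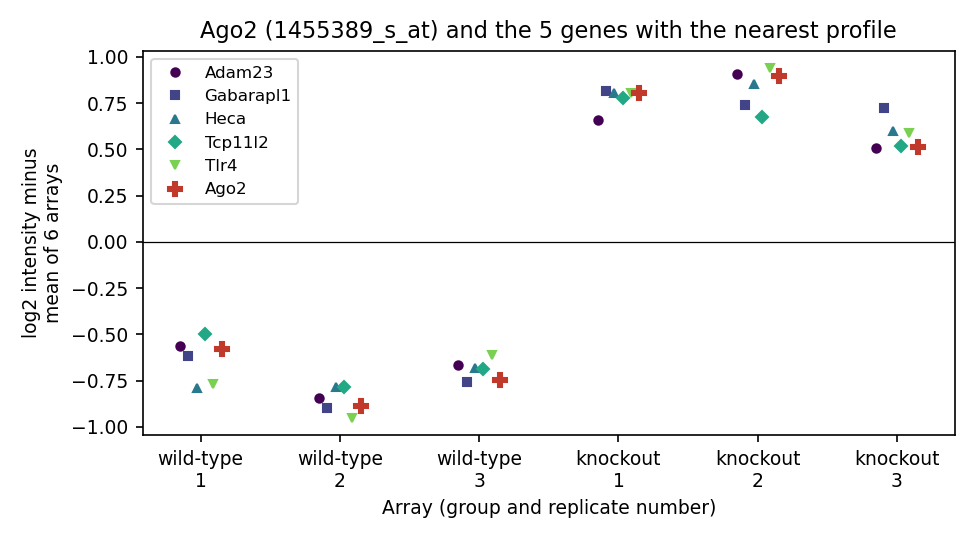
log2 intensity minus the mean of the 6 arrays (y axis) of Ago2 probe set 1455389_s_at (red crosses) and of the 5 genes with the nearest profile, on each array (x axis, group and replicate number). All 6 lie below 0 on the wild-type arrays and above 0 on the knockout arrays.

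On chromosome 15 the protein-coding genes next to Ago2 in the RefSeq table are Chrac1, a subunit of a chromatin remodelling complex, on one side and Ptk2, the focal adhesion kinase gene, on the other. Neither has a probe set among those analysed here. The table holds 11 genes of chromosome 15 in all, Ago2 included.

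The ventricles hold cardiomyocytes, in which Cre is active, together with fibroblasts, vessel cells and blood cells. In bulk tissue, more cells of a type and more RNA per cell cannot be told apart, and this applies to Ago2, which is made in many cell types. Of 45 markers of 7 cell types, 2 are in the table. They were Myh7 of the 11 markers of ventricular cardiomyocytes, the β-myosin heavy chain gene, with a log2 difference of 3.43, and Col3a1 of the 7 of fibroblasts, a collagen gene, with -1.10. None of the 22 markers of endothelium, smooth muscle, leukocytes and erythroid cells was among the probe sets analysed here. The same held for the 5 of atrial cardiomyocytes. Myh7 is in the table because it differed between the genotypes, and the study reports it as a stress marker raised in knockout neonatal hearts. The labelled tissue could therefore not be checked against it. The part of cell makeup in the rise of Ago2 was not tested. Arrays of the same group had a Pearson r of 0.991 to 0.994 over the probe sets, and arrays of different groups one of 0.600 to 0.638. This describes the table, whose probe sets are not independent and were selected for the difference.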

How the data were processed

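RNA of neonatal ventricles was hybridised to Affymetrix mouse genome arrays, 3 per group. The values that the authors deposited are linear intensities of probe sets, between 30.1 and 18292, and analysed the arrays in GeneSpring GX with thresholds of 1 for the log2 fold change and 0.05 for p. Summarization and normalization are not given in the sources used here. The number of arrays limits the precision. Intensities were set to log2 without a pseudocount, and knockout was compared with wild-type over all 271 probe sets with limma 3.58.1 (lmFit, eBayes) in R 4.3.3, which was tested on simulated data. Counts and distances were computed in Python 3.11.15 with pandas 2.3.3. No p-values are given. Of the probe sets, 253 carried 1 gene name, all matched to RefSeq by gene number, 3 several and 15 none. A gene with several probe sets was represented by its brightest one in the search for similar profiles. The rule for named genes took Ago2, listed genes in the table, the 5 nearest profiles, the neighbours of Ago2 in the order of difference and intensity and on the chromosome, and the 2 smallest differences. Zfp346, the other genes with at least 3 probe sets, the genes nearest to the dimmer Ago2 probe sets, and microRNA pathway genes outside the table were named beside it, after the values were seen. The members and lists were chosen with earlier results of these data known. Alternatives were median centring, quantile normalization, a pseudocount of 16, leaving out the dimmest 25% or probe sets ending in _x_at or _s_at, trended robust eBayes, each group's own SD, a replicate block, leaving out each array, the mean over Ago2 probe sets, and Pearson correlation for the profiles.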

Additional observations from a re-analysis of the deposited data

How the results depend on the processing

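The 3 Ago2 probe sets were higher in the knockout under every alternative run. The selection at 2-fold largely fixes this direction, so it is not read as a result. The log2 difference moved by more than the SD between replicates with median centring, to 0.93 for 1455389_s_at, 1.45 for 1435636_at and 0.92 for 1455294_at, and with quantile normalization, to 0.85, 1.35 and 0.80. The mean of the 3 probe sets was 1.64, which is away from 1435636_at and 1455294_at by more than their SD. Leaving out each array in turn gave 1.40 to 1.59, 1.85 to 2.10 and 1.39 to 1.51 in the same order. The number of probe sets at least 2-fold higher was 66 with median centring and 65 with quantile normalization, in place of 183, with 88 lower in each case, and 173 to 181 with an array left out. Median centring takes 0.54 from every difference by construction, and quantile normalization takes an amount that differs between probe sets. Of the 5 genes nearest to Ago2, 1 was among the nearest with Pearson correlation, 2 with quantile normalization, 3 with the pseudocount, and 2 to 4 with an array left out, fewest without knockout replicate 3. With the replicate number as a block the differences of 1.48, 1.99 and 1.46 did not change, since each number is once in each group, and their standard errors were 0.12, 0.16 and 0.10. Same-numbered arrays had correlations of deviations of -0.02, 0.01 and 0.08, and arrays of different numbers had -0.15 to 0.12. No pairing by number was thus visible. With 3 arrays a group and selected probe sets, a weak pairing could not be seen, and the sources do not state one. Without probe sets ending in _s_at, 1455389_s_at has no value.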
